A study of Homo sapiens with 18 samples.

Results

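The extrinsic route of apoptosis was followed at the RNA level through 9 genes in 3 human NK/T cell lymphoma lines treated with icaritin. The genes encode its ligands (FASLG and TNFSF10), receptors (FAS, TNFRSF10A and TNFRSF10B), adaptor (FADD), initiator caspases (CASP8 and CASP10) and the caspase-8 regulator CFLAR. They were chosen for their known place in this route, with earlier results of these data known, and found by NCBI Gene ID. All 9 were listed in each of the 18 libraries, among 21662 gene IDs over all libraries, and passed the filter on low counts. The groups were SNT-8, SNK-10 and SNT-16 cells, all given as wild type, after 12 h with icaritin, a flavonoid of Epimedium plants, and the same lines after 12 h with DMSO, the solvent. Each of the 6 groups held 3 libraries. The dose of icaritin, and whether replicates came from separate cultures, could not be read from the labels, so a p-value speaks of the spread among libraries, which may be technical.

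When a trimer of Fas ligand or TRAIL binds its receptor, the death domains of the receptor gather the adaptor FADD, and FADD brings in procaspase-8 and procaspase-10. The caspases activate each other there and go on to cleave the executioner caspases and BID, which links the route to mitochondria. The protein of CFLAR, called c-FLIP, competes for the same complex in its short and long forms. Its long form resembles caspase-8 without a working active site. NK cells and cytotoxic T cells carry FASLG and TNFSF10 as weapons against target cells, and Fas on their own surface limits their numbers after activation.

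FASLG, TNFSF10 and FADD were the genes lower after icaritin in each line, and FAS was the gene with the largest rise, so their promoters are shown as the region where these RNAs start. Each is 300 bases of RefSeq on GRCh38.p14, in the direction of the gene, with 250 bases before its annotated start and 50 after; FAS has 3 such windows in the table, and the first is shown. Capitals mark letters that matched a motif in either direction.
FASLG chr1:172658853-172659152 (+ strand): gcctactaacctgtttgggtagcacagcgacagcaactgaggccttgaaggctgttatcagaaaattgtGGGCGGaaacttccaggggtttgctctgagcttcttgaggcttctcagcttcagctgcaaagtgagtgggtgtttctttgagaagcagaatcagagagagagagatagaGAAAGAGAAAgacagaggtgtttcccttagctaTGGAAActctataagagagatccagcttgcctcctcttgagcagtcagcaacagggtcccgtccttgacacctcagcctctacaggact
TNFSF10 chr3:172523381-172523680 (- strand): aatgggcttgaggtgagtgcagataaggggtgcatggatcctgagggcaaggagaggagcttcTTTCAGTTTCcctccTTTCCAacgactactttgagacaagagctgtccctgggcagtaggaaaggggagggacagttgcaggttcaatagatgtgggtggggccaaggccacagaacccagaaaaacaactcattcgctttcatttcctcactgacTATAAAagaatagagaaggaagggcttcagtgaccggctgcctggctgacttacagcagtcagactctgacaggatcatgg
FADD chr11:70203046-70203345 (+ strand): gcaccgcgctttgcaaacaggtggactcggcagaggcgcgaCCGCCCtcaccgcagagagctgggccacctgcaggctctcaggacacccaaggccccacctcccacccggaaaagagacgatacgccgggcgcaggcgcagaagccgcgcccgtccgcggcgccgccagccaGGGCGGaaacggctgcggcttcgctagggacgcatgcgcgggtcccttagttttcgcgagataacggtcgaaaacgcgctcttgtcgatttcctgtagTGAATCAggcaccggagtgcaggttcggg
FAS chr10:88990548-88990847 (+ strand): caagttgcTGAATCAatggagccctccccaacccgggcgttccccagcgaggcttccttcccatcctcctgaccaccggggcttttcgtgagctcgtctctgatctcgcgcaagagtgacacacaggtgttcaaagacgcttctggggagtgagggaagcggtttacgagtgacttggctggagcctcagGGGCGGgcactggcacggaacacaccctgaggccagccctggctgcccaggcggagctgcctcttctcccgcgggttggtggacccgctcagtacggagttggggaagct

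Known motifs were searched on both strands, and their share was taken over 34796 promoter windows of this length in the table. The GC box, spelled GGGCGG, was in 44.9% of windows, and the TATA box, spelled TATAAA, in 11.6%. The letters of the AP-1 site, searched loosely as TGANTCA with any base in the middle, were in 7.73% of windows. Those of the FOXO site, GTAAACA, were in 3.42%. The core bound by NFAT factors, TGGAAA, was in 20.8%, and the C/EBP-ATF letters, TGATGNAA, were in 3.63%. The interferon response motif, a repeat of GAAA 2 bases apart, was in 3.57%, and the p53 half-site in 6.65%. The FOXO, C/EBP-ATF and p53 letters were in none of these 4 windows. Both ligand promoters held the NFAT core, which begins 39 bases before the start in FASLG and 172 bases before it in TNFSF10. Both also held the interferon letters, at 72 and 187 bases before the start. TNFSF10 had a TATA box 31 bases before its start, and FASLG a GC box 181 bases before its start. FAS held a GC box 60 bases before its start and, 242 bases before it, TGAATCA, a match to the loose AP-1 letters. FADD held 2 GC boxes, 209 and 77 bases before its start, and the same TGAATCA match 21 bases after it. GC content was 49.3% in FASLG, 51% in TNFSF10, 63% in FAS and 66.7% in FADD, against a median of 58.7% over all windows. A match of letters is a description and not a measured binding site, and the lack of one says only that the letters are not in this window.

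The expected counts of a library, the authors' estimated fragments per gene, summed to between 9526431 and 10100453. All 9 markers of the NK/T lineage (PTPRC, CD2, CD3E, CD7, NCAM1, IL2RB, GZMB, PRF1 and TBX21) reached 1 FPKM in each line, with a summed level of 2468.4 to 2712.9 FPKM with icaritin and 2452 to 2585.3 FPKM with DMSO in SNT-8, 1283.5 to 1357.5 and 1433.8 to 1453.4 FPKM in SNK-10, and 2917.7 to 2960.9 and 2896.5 to 2966.8 FPKM in SNT-16. Markers of other cell types were low. The 5 B and plasma cell markers summed to 0.92 to 1.08 FPKM with icaritin and 1.70 to 2.11 FPKM with DMSO in SNT-8, 0.32 to 0.60 and 0.36 to 0.49 FPKM in SNK-10, and 1.59 to 1.85 and 1.94 to 1.96 FPKM in SNT-16, with MS4A1 and JCHAIN at or below a mean of 0.02 FPKM in each line. The 4 epithelial markers summed to 2.52 to 2.67 FPKM with icaritin and 1.05 to 2.03 FPKM with DMSO in SNT-8, 2.46 to 2.78 and 1.51 to 1.89 FPKM in SNK-10, and 1.63 to 2.51 and 1.61 to 2.46 FPKM in SNT-16, with EPCAM at 0. The 4 stromal markers summed to 2.32 to 2.89 FPKM with icaritin and 0.76 to 1.01 FPKM with DMSO in SNT-8, 1.79 to 2.13 and 1.26 to 1.73 FPKM in SNK-10, and 1.67 to 1.86 and 0.56 to 0.88 FPKM in SNT-16, and DCN among them was at most 0.04 FPKM on the mean of a line. The 5 myeloid markers summed to 8.51 to 12.8 FPKM with icaritin and 9.22 to 12.6 FPKM with DMSO over the lines, mostly LYZ, with CD14 at or below a mean of 0.06 FPKM. Not all of these markers were near 0. The mean of a line reached 1.42 FPKM for PAX5 (SNT-16), 1.58 FPKM for KRT8, 1.20 FPKM for COL1A1 and 2.60 FPKM for CSF1R (all SNT-8). RNR2, a mitochondrial ribosomal RNA, held more of the counts in every icaritin library (2.12% to 2.78%, 4.59% to 5.12% and 1.65% to 1.77% in SNT-8, SNK-10 and SNT-16) than in any DMSO library of its line (1.19% to 1.33%, 1.5% to 1.55% and 0.83% to 0.889%), and the part of these markers and of RNR2 in the responses was not tested. Icaritin replicate 2 of SNT-8 stood apart from the other 2 icaritin libraries of that line, with a chi-square per gene of 5.92 and 8.11 against them and 3.04 between them. The SNT-8 response of each of the 9 genes is given with and without this library, while ratios and the values of other genes include it. Icaritin replicate 3 of SNK-10 also stood apart, with 3.38 and 4.11 against the other 2 libraries and 1.52 between them. Without it, the SNK-10 log2 fold change was -1.59 for FASLG, -0.35 for TNFSF10, 0.93 for FAS, -0.64 for FADD, 0.43 for CASP10 and -0.04 for CFLAR. For CASP8, TNFRSF10B and TNFRSF10A, the range without each of the 18 libraries in turn is given, which covers its removal. In SNK-10 it was 0.49 to 0.56 for CASP8, 0.39 to 0.43 for TNFRSF10B and -0.01 to 0.12 for TNFRSF10A. The SNK-10 values given below include it unless said otherwise.

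After icaritin, the genes of both ligands and of the adaptor FADD were lower in all 3 lines, FAS and TNFRSF10B, which encodes TRAIL receptor 2 (DR5), were higher in all 3, and TNFRSF10A, which encodes TRAIL receptor 1 (DR4), did not pass the test in any. CASP8 was higher in SNK-10 and passed in neither SNT line. In SNT-8, 3 of the 9 genes were higher and 3 lower, a total of 6 called at an adjusted p under 0.05, where 49.1% of the 14396 genes tested were called (24% higher and 25% lower). In SNK-10, 4 were higher and 3 lower, against 48.4% of all genes called (24.4% higher and 24% lower). In SNT-16, 2 were higher and 3 lower, against 42% of all genes called (21.2% higher and 20.8% lower). For the mean of the 3 lines, 7 of the 9 were called, against 61.7% of all genes (31.7% higher and 30% lower), and the median log2 fold change was 0.06 for the 9 genes and 0.03 for all genes. Icaritin and DMSO libraries did not overlap in scaled counts for 6 of the 9 genes in SNT-8 (54.1% of all genes), 7 in SNK-10 (55.2%) and 5 in SNT-16 (52.7%). With shares this high in the background, the counts alone do not set the 9 genes apart, and their sizes and directions are described one by one. These are bulk RNA values, in which fewer cells of a type and less RNA per cell cannot be told apart.

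**Figure D1:**
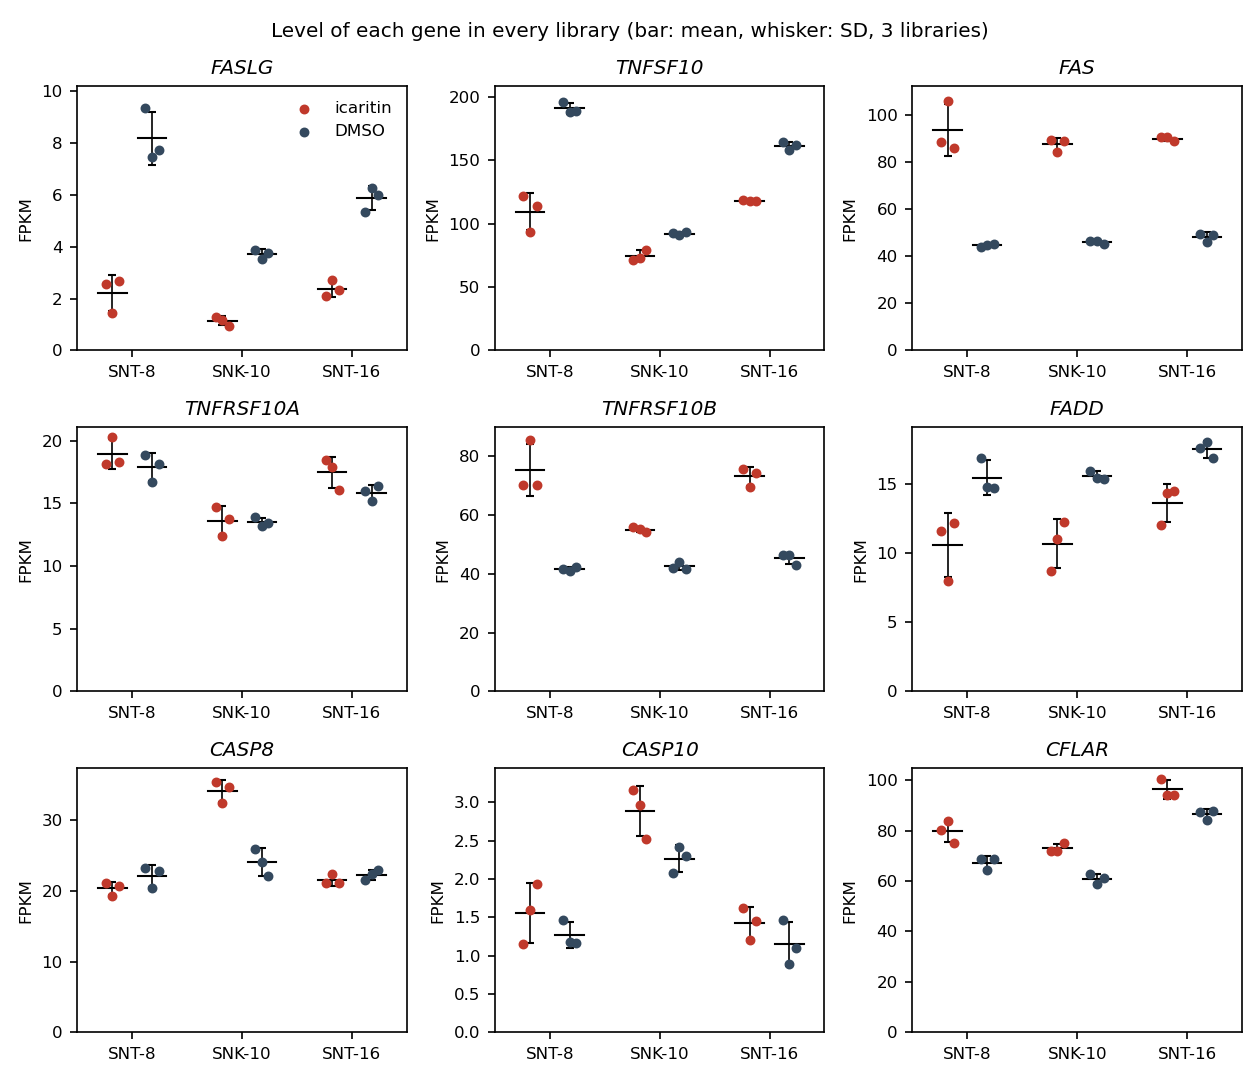
Level of each of the 9 genes in FPKM (y axis, from 0) in every library of SNT-8, SNK-10 and SNT-16 (x axis), icaritin left and DMSO right; points are libraries, bars the mean and whiskers the SD of 3 libraries. The icaritin and DMSO points part completely for FASLG, TNFSF10, FAS, TNFRSF10B and FADD in each line, while those of TNFRSF10A overlap in each line.

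FASLG, the gene of Fas ligand (NCBI Gene 356, chromosome 1), fell most of the 9 genes. In SNT-8 it was at 2.58, 1.43 and 2.68 FPKM in the icaritin libraries, against 9.36, 7.46 and 7.75 FPKM in the DMSO libraries. In SNK-10 the icaritin libraries had 1.30, 1.16 and 0.96 FPKM and the DMSO libraries 3.87, 3.52 and 3.76 FPKM. In SNT-16 the icaritin libraries had 2.10, 2.71 and 2.34 FPKM and the DMSO libraries 5.35, 6.25 and 5.99 FPKM. Every icaritin library lay below every DMSO library, also across lines, and the lowest value of SNT-8 with icaritin was that of replicate 2. The log2 fold change was -1.94 (SE 0.157, adjusted p = 2.37e-13) in SNT-8, -1.67 (SE 0.207, adjusted p = 9.93e-09) in SNK-10 and -1.33 (SE 0.163, adjusted p = 1.08e-08) in SNT-16, and -1.72 in SNT-8 without icaritin replicate 2. The mean log2 fold change of -1.65 was the 55th lowest of the 14396 genes tested, and 0.375% of genes fell further. The gene rests on few fragments, 18 to 50 expected counts in an icaritin library and 65 to 179 in a DMSO library. The test that its response differed between lines did not pass (adjusted p = 0.168).

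TNFSF10, the gene of TRAIL (NCBI Gene 8743, chromosome 3), was the most abundant of the 9 genes per length in every DMSO group and also fell in each line, by less than FASLG. In SNT-8 it was at 121, 93.6 and 114 FPKM with icaritin and 196, 188 and 189 FPKM with DMSO. In SNK-10 it was at 71.7, 73.1 and 79.5 FPKM with icaritin and 92.3, 90.7 and 93.5 FPKM with DMSO. In SNT-16 it was at 119, 118 and 118 FPKM with icaritin and 164, 158 and 162 FPKM with DMSO. Icaritin and DMSO libraries did not overlap within a line, but the DMSO level of SNK-10 lay below the icaritin level of SNT-16. The log2 fold change was -0.87 (SE 0.0584, adjusted p = 4.87e-14) in SNT-8, -0.28 (SE 0.0621, adjusted p = 0.000288) in SNK-10 and -0.48 (SE 0.0584, adjusted p = 3.15e-08) in SNT-16, and -0.77 in SNT-8 without icaritin replicate 2. The fall differed between lines (interaction, adjusted p = 2.62e-05).

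FAS, the gene of the Fas receptor CD95 (NCBI Gene 355, chromosome 10), rose 1.93-fold on the mean of the lines. SNT-8 cells had 88.2, 105.9 and 86.0 FPKM with icaritin and 44.0, 44.9 and 45.1 FPKM with DMSO. SNK-10 cells had 89.1, 84.3 and 89.0 FPKM with icaritin and 46.5, 46.2 and 45.1 FPKM with DMSO. SNT-16 cells had 90.4, 90.5 and 88.7 FPKM with icaritin and 49.6, 46.1 and 49.1 FPKM with DMSO. The lines lay close together in both arms, with all 9 icaritin libraries between 84.3 and 105.9 FPKM and all 9 DMSO libraries between 44.0 and 49.6 FPKM. The log2 fold change was 1.01 (SE 0.0593, adjusted p = 2.06e-15) in SNT-8, 0.96 (SE 0.0595, adjusted p = 8e-15) in SNK-10 and 0.87 (SE 0.0592, adjusted p = 1.14e-13) in SNT-16, and 0.90 in SNT-8 without icaritin replicate 2. Its mean log2 fold change of 0.95 was the 408th highest of all genes tested, and the interaction did not pass (adjusted p = 0.462). FAS overlaps ACTA2 and FAS-AS1 in the annotation, which averaged 38.3 and 0.572 CPM (counts scaled to library size with TMM factors) against 271 CPM for FAS, and whether counting used strand could not be read from the labels.

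TNFRSF10B, the gene of TRAIL receptor 2 (NCBI Gene 8795, chromosome 8), rose in each line and least in SNK-10. The SNT-8 libraries gave 70.04, 85.5 and 70.1 FPKM with icaritin and 41.6, 41.1 and 42.2 FPKM with DMSO. The SNK-10 libraries gave 55.8, 55.1 and 54.1 FPKM with icaritin and 41.8, 44.0 and 41.7 FPKM with DMSO. The SNT-16 libraries gave 75.8, 69.4 and 74.2 FPKM with icaritin and 46.5, 46.3 and 43.1 FPKM with DMSO. All 9 icaritin libraries lay above all 9 DMSO libraries. The log2 fold change was 0.81 (SE 0.0583, adjusted p = 1.1e-13) in SNT-8, 0.41 (SE 0.0592, adjusted p = 5.89e-07) in SNK-10 and 0.67 (SE 0.0581, adjusted p = 1.62e-11) in SNT-16, and 0.70 in SNT-8 without icaritin replicate 2. The rise differed between lines (interaction, adjusted p = 0.00241). The gene overlaps RHOBTB2, which averaged 26.0 CPM against 228 CPM for TNFRSF10B, and TNFRSF10B-AS1, at 0.0779 CPM.

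TNFRSF10A, the gene of TRAIL receptor 1 (NCBI Gene 8797, chromosome 8), is the other TRAIL receptor with a death domain and did not pass the test in any line. Its level in SNT-8 was 18.2, 20.3 and 18.3 FPKM with icaritin and 18.9, 16.7 and 18.2 FPKM with DMSO. Its level in SNK-10 was 14.7, 12.4 and 13.7 FPKM with icaritin and 13.9, 13.2 and 13.5 FPKM with DMSO. Its level in SNT-16 was 18.4, 17.9 and 16.1 FPKM with icaritin and 16.0, 15.2 and 16.4 FPKM with DMSO. The arms overlapped in each line, and the log2 fold changes of 0.03 (SE 0.0802), 0.04 (SE 0.0886) and 0.12 (SE 0.0828) in SNT-8, SNK-10 and SNT-16 did not pass (adjusted p = 0.783, 0.74 and 0.266), and SNT-8 was at -0.03 without icaritin replicate 2. Per length, the ratio of TNFRSF10B to TNFRSF10A in FPKM was 3.96 ± 0.212 with icaritin and 2.32 ± 0.128 with DMSO in SNT-8, 4.06 ± 0.336 and 3.15 ± 0.169 in SNK-10, and 4.2 ± 0.382 and 2.86 ± 0.217 in SNT-16 (SD, n = 3 each). The ratio was higher in every icaritin library than in any DMSO library of its line.

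FADD, the gene of the adaptor shared by Fas and the TRAIL receptors (NCBI Gene 8772, chromosome 11), was lower in each line. SNT-8 cells had 11.6, 7.95 and 12.2 FPKM with icaritin and 16.9, 14.8 and 14.7 FPKM with DMSO. SNK-10 cells had 8.73, 11.04 and 12.2 FPKM with icaritin and 16.0, 15.4 and 15.4 FPKM with DMSO. SNT-16 cells had 12.02, 14.4 and 14.5 FPKM with icaritin and 17.6, 18.04 and 16.8 FPKM with DMSO. Icaritin libraries spread more than DMSO libraries but lay below all DMSO libraries, the nearest being 14.5 against 14.7 FPKM in different lines. The log2 fold change was -0.59 (SE 0.121, adjusted p = 0.000152) in SNT-8, -0.51 (SE 0.121, adjusted p = 0.000886) in SNK-10 and -0.38 (SE 0.114, adjusted p = 0.00757) in SNT-16. Without SNT-8 icaritin replicate 2 it was -0.43 in SNT-8 (adjusted p = 0.000684), and without SNT-16 icaritin replicate 1 the call in SNT-16 was lost (-0.29, adjusted p = 0.0611). The interaction did not pass (adjusted p = 0.655).

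CASP8, the gene of the initiator caspase at the receptor complex (NCBI Gene 841, chromosome 2), rose in SNK-10. There it was at 35.3, 32.4 and 34.7 FPKM with icaritin and 26.0, 24.1 and 22.0 FPKM with DMSO, with no overlap. In SNT-8 it was at 21.1, 19.3 and 20.6 FPKM with icaritin and 23.3, 20.4 and 22.7 FPKM with DMSO. In SNT-16 it was at 21.0, 22.4 and 21.0 FPKM with icaritin and 21.5, 22.3 and 22.9 FPKM with DMSO. The arms of both SNT lines overlapped, and the 3 icaritin libraries of SNK-10 stood above the other 15 libraries. The log2 fold change was 0.52 (SE 0.0589, adjusted p = 1.37e-09) in SNK-10, and -0.10 (SE 0.0625, adjusted p = 0.176) and -0.09 (SE 0.0619, adjusted p = 0.258) in SNT-8 and SNT-16, and -0.09 in SNT-8 without icaritin replicate 2. The response differed between lines (interaction, adjusted p = 4.1e-07), so the called mean of 0.11 (SE 0.0353, adjusted p = 0.00745) lies between the values of the lines.

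CASP10, the gene of the related caspase-10 (NCBI Gene 843, chromosome 2), was near the bottom of the 9 genes at 0.89 to 3.16 FPKM and 53 to 166 expected counts. In SNT-8 it was at 1.15, 1.60 and 1.93 FPKM with icaritin and 1.46, 1.18 and 1.17 FPKM with DMSO. In SNK-10 it was at 3.16, 2.97 and 2.52 FPKM with icaritin and 2.08, 2.42 and 2.30 FPKM with DMSO. In SNT-16 it was at 1.62, 1.21 and 1.45 FPKM with icaritin and 1.46, 0.89 and 1.10 FPKM with DMSO. The arms overlapped in both SNT lines and not in SNK-10. The mean log2 fold change of the 3 lines was 0.38 (SE 0.0894, adjusted p = 0.00028) and held without each library in turn (highest adjusted p = 0.00155). Single lines were less firm. The value of 0.45 in SNT-8 (SE 0.161, adjusted p = 0.0203) was lost without DMSO replicate 1 (0.43, adjusted p = 0.0546), DMSO replicate 3 (0.41, adjusted p = 0.0655) or icaritin replicate 3 (0.26, adjusted p = 0.223) of SNT-8, and was 0.43 without icaritin replicate 2 (adjusted p = 0.0404). That of 0.36 in SNK-10 (SE 0.133, adjusted p = 0.0219) was lost without DMSO replicate 1 (0.33, adjusted p = 0.0741), DMSO replicate 2 (0.34, adjusted p = 0.0711) or icaritin replicate 1 (0.30, adjusted p = 0.111) of SNK-10. That of 0.34 in SNT-16 did not pass (SE 0.168, adjusted p = 0.101) but did without DMSO replicate 1 of SNT-16 (0.55, adjusted p = 0.0166). CASP10 overlaps MTND5P25, MTND4P23 and MTND4LP13 in the annotation, which no library lists. Its expected counts were fractional in all 18 libraries, and the part of shared fragments in its rise was not tested.

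**Figure D2:**
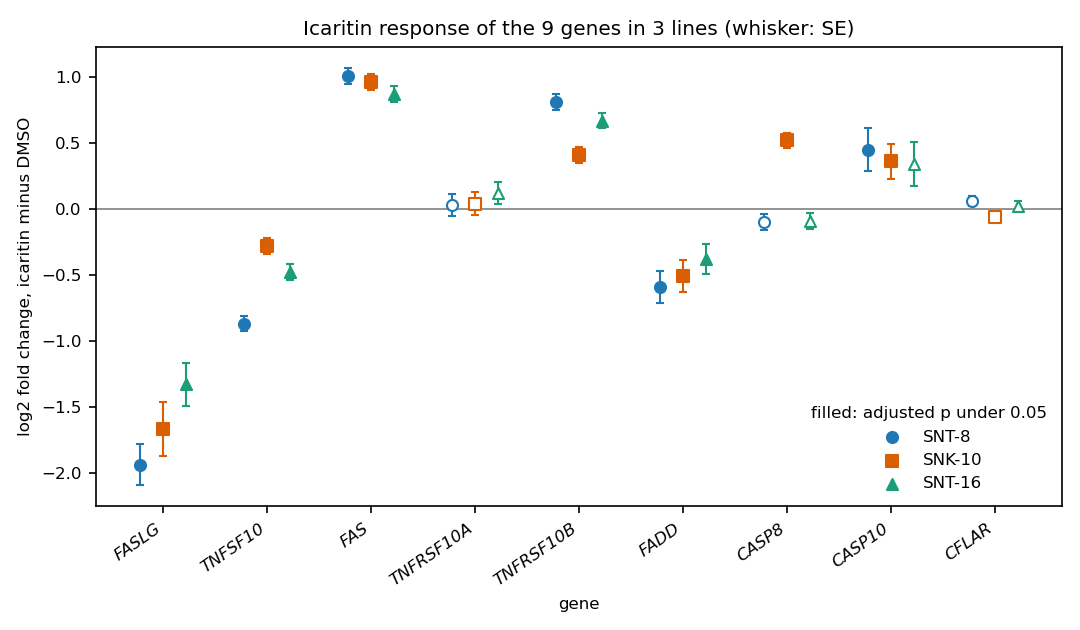
Log2 fold change of icaritin over DMSO (y axis) for each of the 9 genes (x axis) in SNT-8, SNK-10 and SNT-16; whiskers are the SE, and filled symbols have an adjusted p under 0.05 by edgeR. CASP8 is filled in SNK-10 alone at 0.52, TNFRSF10A and CFLAR are open in each line, and FASLG is lowest in each line.

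CFLAR, the gene of c-FLIP (NCBI Gene 8837, chromosome 2), had counts that did not pass the test in any line, while its mean transcript length was shorter after icaritin. The counts were 399 ± 9.20 CPM with icaritin and 382 ± 7.08 CPM with DMSO in SNT-8, 375 ± 10.4 and 389.7 ± 4.22 CPM in SNK-10, and 446 ± 6.11 and 441 ± 10.8 CPM in SNT-16 (SD, n = 3 each). The log2 fold changes of 0.06 (SE 0.0410), -0.06 (SE 0.0413) and 0.02 (SE 0.0406) did not pass in SNT-8, SNK-10 and SNT-16 (adjusted p = 0.203, 0.288 and 0.786). Without icaritin replicate 2, SNT-8 was at 0.07, and scaled by library size only it passed (0.11, adjusted p = 0.0187). In FPKM, which divides the counts by length, CFLAR was at 80.4, 83.8 and 75.2 with icaritin and 68.6, 64.2 and 68.8 with DMSO in SNT-8. In SNK-10 it was at 71.9, 71.8 and 75.1 FPKM with icaritin and 62.6, 58.9 and 61.4 FPKM with DMSO. In SNT-16 it was at 100.6, 94.1 and 94.2 FPKM with icaritin and 87.4, 84.1 and 88.0 FPKM with DMSO. In FPKM no icaritin library overlapped the DMSO libraries of its line, and limma on log2(FPKM + 0.1) called the mean difference of 0.22 (adjusted p = 1.47e-06).

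The deposited files give each gene a length in each library, and the length varies where a gene has several transcripts. For CFLAR it was 5152, 4706 and 5334 bases with icaritin and 5417, 5709 and 5539 bases with DMSO in SNT-8. In SNK-10 it was 4947, 5192 and 4514 bases with icaritin and 5985, 6503 and 6098 bases with DMSO. In SNT-16 it was 4687, 4795 and 4765 bases with icaritin and 5229, 5197 and 4988 bases with DMSO. Every icaritin library was below every DMSO library of its line. The mean log2 ratio was -0.14 in SNT-8, -0.34 in SNK-10 and -0.11 in SNT-16, and -0.20 over the lines (a change of -12.8%). The exact permutation test within lines, two-sided over 8000 arrangements, gave p = 0.00025, the smallest it can give, and an adjusted p of 0.00751 over the 6789 genes whose length varied. Of these genes, 7.79% were called and 4.64% were called shorter with icaritin, and 33 genes (0.486%) shortened by more than CFLAR. The ratio lay between -0.21 and -0.18 without each library in turn, with -0.18 without SNT-8 icaritin replicate 2. CFLAR is listed with 10 transcripts, and the 5 of these whose length could be read from the GENCODE transcripts have 1230, 2056, 2128, 4415 and 14672 bases. Which transcripts changed cannot be read from a mean length. Of the other members with several transcripts, TNFSF10 changed by -0.893% (exact permutation p = 0.0015, adjusted p = 0.0246), and FAS, FASLG, TNFRSF10B, CASP8 and CASP10 did not pass (exact permutation, adjusted p between 0.151 and 0.906). TNFRSF10A and FADD are listed with 1 transcript each, so their length is fixed.

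**Figure D3:**
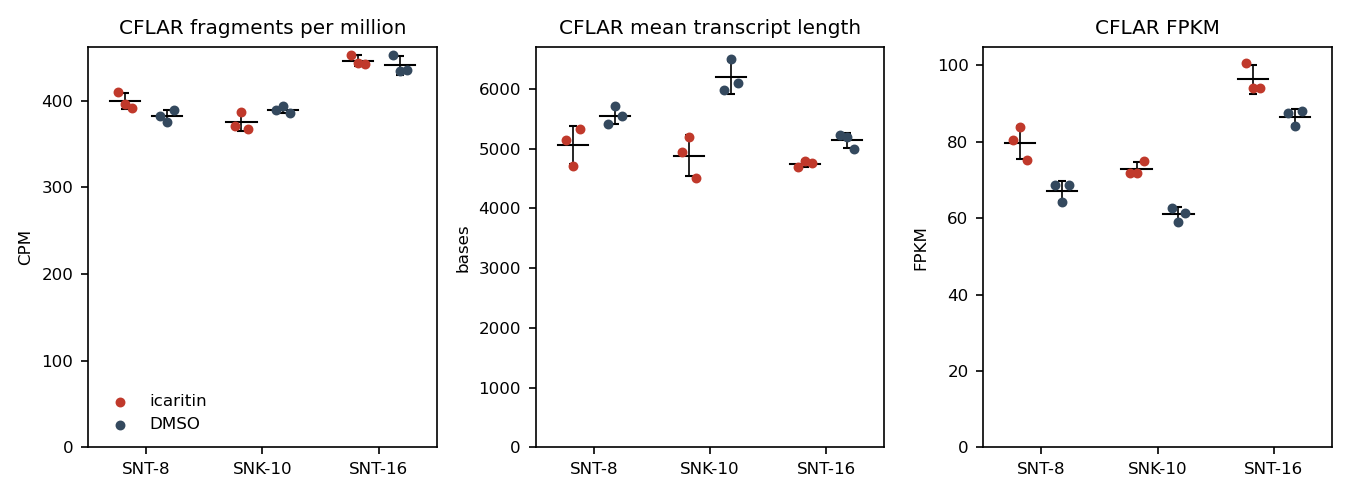
CFLAR in every library as scaled counts (left, CPM), mean transcript length in bases (middle) and FPKM (right), by line on the x axis, icaritin left and DMSO right; points are libraries, bars the mean and whiskers the SD of 3 libraries, and all y axes start at 0. Counts overlap in SNK-10 and SNT-16, whereas length is lower and FPKM higher in every icaritin library than in the DMSO libraries of its line.

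Because c-FLIP and caspase-8 meet in the same complex, the ratio of their RNAs per length was computed. CFLAR over CASP8 in FPKM was 3.93 ± 0.363 with icaritin and 3.04 ± 0.102 with DMSO in SNT-8, and 4.49 ± 0.290 with icaritin and 3.89 ± 0.151 with DMSO in SNT-16 (SD, n = 3 each). In SNK-10 it was 2.14 ± 0.0935 with icaritin and 2.55 ± 0.209 with DMSO. The ratio was thus higher with icaritin in all libraries of the SNT lines and lower in all libraries of SNK-10 than with DMSO of the same line. On counts, with no length in the ratio, it was 7.60 ± 0.341 with icaritin and 6.78 ± 0.317 with DMSO in SNT-8, 4.15 ± 0.328 and 6.17 ± 0.224 in SNK-10, and 8.24 ± 0.492 and 7.64 ± 0.306 in SNT-16, where the libraries of SNT-16 overlap. FAS over FASLG in FPKM was 46.8 ± 23.7 with icaritin and 5.51 ± 0.708 with DMSO in SNT-8, 78.0 ± 12.9 and 12.4 ± 0.651 in SNK-10, and 38.1 ± 4.82 and 8.28 ± 0.945 in SNT-16. TNFRSF10B over FAS in FPKM was 0.806 ± 0.0110 with icaritin and 0.932 ± 0.0151 with DMSO in SNT-8, 0.629 ± 0.0227 and 0.926 ± 0.0260 in SNK-10, and 0.814 ± 0.0410 and 0.939 ± 0.0631 in SNT-16. These ratios are descriptions and were not tested.

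Set in order of FPKM, DMSO cells of each line began with TNFSF10, CFLAR, FAS, TNFRSF10B and CASP8 and ended with FASLG and CASP10. TNFSF10 averaged 191 ± 4.52 FPKM in SNT-8, 92.2 ± 1.42 in SNK-10 and 161 ± 3.03 in SNT-16, and CASP10 1.27 ± 0.165, 2.27 ± 0.172 and 1.15 ± 0.288 (SD, n = 3 each). FAS and TNFRSF10B overlapped in SNT-16 DMSO libraries, and TNFRSF10A and FADD in those of SNT-8; other neighbours in the DMSO order did not overlap. With icaritin, FAS came first in SNK-10 at 87.4 ± 2.74 FPKM, above TNFSF10 at 74.8 ± 4.18 FPKM, while TNFSF10 and CFLAR overlapped. In SNT-8 with icaritin, TNFSF10 at 109.6 ± 14.4 FPKM overlapped FAS at 93.4 ± 10.9 FPKM, as CFLAR did TNFRSF10B, CASP8 did TNFRSF10A, and FASLG did CASP10. In SNT-16 with icaritin no neighbours overlapped, with TNFSF10 first at 118 ± 0.636 FPKM and CASP10 last at 1.43 ± 0.206 FPKM. The placing of FASLG last in SNK-10 with icaritin, at 1.14 ± 0.171 FPKM, was below CASP10 at 2.88 ± 0.329 FPKM.

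Without drug, SNK-10 differed from the SNT lines mainly in the ligands and in CASP10. Against SNT-8, SNK-10 was called for 5 of the 9 genes (57.6% of all genes), with log2 differences of -1.14 for FASLG (SE 0.144, adjusted p = 7.58e-09), -1.03 for TNFSF10 (SE 0.0591, adjusted p = 1.88e-16), -0.40 for TNFRSF10A (SE 0.0845, adjusted p = 9.67e-05), 0.95 for CASP10 (SE 0.153, adjusted p = 1.14e-06) and 0.16 for CASP8 (SE 0.0615, adjusted p = 0.0224). The last was lost without SNT-8 DMSO replicate 2 (0.12, adjusted p = 0.132) or SNK-10 DMSO replicate 1 (0.13, adjusted p = 0.108). Against SNT-16, SNK-10 was called for 4 of the 9 genes (57.8% of all genes), with -0.61 for FASLG (SE 0.151, adjusted p = 0.000605), -0.75 for TNFSF10 (SE 0.0594, adjusted p = 9.33e-13), 1.07 for CASP10 (SE 0.156, adjusted p = 1.51e-07) and -0.18 for CFLAR (SE 0.0409, adjusted p = 0.000273). SNT-8 against SNT-16 gave 3 calls (13.2% of all genes), 0.53 for FASLG (SE 0.133, adjusted p = 0.00528), 0.29 for TNFSF10 (SE 0.0571, adjusted p = 0.000616) and -0.21 for CFLAR (SE 0.0409, adjusted p = 0.000404). The FASLG value was lost without SNT-8 DMSO replicate 1 (0.42, adjusted p = 0.0738) and by limma on log2(FPKM + 0.1) (0.47, adjusted p = 0.133) or log2(FPKM + 1) (0.42, adjusted p = 0.0605). TNFRSF10A passed there without SNT-8 DMSO replicate 2 (0.27, adjusted p = 0.0483) or SNT-8 icaritin replicate 2 (0.23, adjusted p = 0.0404), and with RLE size factors (0.24, adjusted p = 0.0498). For SNK-10 against SNT-16, TNFRSF10A passed with library size only (-0.23, adjusted p = 0.0206) and by limma (adjusted p = 0.0123 and 0.013 with pseudocounts of 0.1 and 1). CASP8 passed for the same pair with RLE size factors (0.15, adjusted p = 0.0364). FAS, TNFRSF10B and FADD were called between no pair of lines. These comparisons share DMSO libraries with each other and with the icaritin responses.

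The icaritin response itself differed between lines for CASP8, TNFSF10 and TNFRSF10B, 3 of the 9 genes, where 14.3% of all genes passed the interaction test. CASP8 responded more in SNK-10 than in SNT-8 by 0.62 on the log2 scale (SE 0.0859, adjusted p = 2.58e-06) and than in SNT-16 by 0.61 (SE 0.0855, adjusted p = 2.49e-06). TNFSF10 fell less in SNK-10 than in SNT-8, a difference of responses of 0.58 (SE 0.0851, adjusted p = 1.38e-05). The TNFSF10 difference of 0.20 from SNT-16 did not pass (SE 0.0852, adjusted p = 0.135). It passed without SNT-8 icaritin replicate 2 (0.20, adjusted p = 0.0279) or with no filter (0.22, adjusted p = 0.033). Without SNK-10 icaritin replicate 3 it was 0.13, and with single libraries left out its adjusted p reached 0.339. TNFRSF10B rose less in SNK-10 than in SNT-8 (-0.40, SE 0.0830, adjusted p = 0.00108) and than in SNT-16 (-0.26, SE 0.0829, adjusted p = 0.0324). The difference of TNFRSF10B from SNT-16 was lost without any of 8 single libraries of these lines, at adjusted p up to 0.105, namely the 3 SNK-10 icaritin libraries, SNK-10 DMSO replicates 1 and 2, SNT-16 DMSO replicate 3 and SNT-16 icaritin replicates 1 and 3. SNK-10 minus SNT-8 gave 3 calls among the 9 genes (10.8% of all genes), SNK-10 minus SNT-16 gave 2 (12.5%), and SNT-8 minus SNT-16 gave 1 (0.438%), the larger fall of TNFSF10 in SNT-8 (-0.38, SE 0.0825, adjusted p = 0.0257). That last call was lost without SNT-8 DMSO replicate 1 or 3 or any library of SNT-16, at adjusted p up to 0.098. Without SNT-8 icaritin replicate 2 the interaction gave adjusted p = 4.69e-08 for CASP8, 2e-06 for TNFSF10 and 0.000551 for TNFRSF10B.

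For each gene called in at least 2 lines, the closest patterns were sought as the smallest root mean square difference (RMS) of centred log2 CPM over the 18 libraries, among 9332 tested genes with a mean of at least 10 CPM. FASLG, whose own RMS around its mean was 0.93, was closest to LTB (0.275), PDGFRA (0.279) and SLC39A10 (0.326). TNFSF10 (own RMS 0.45) was closest to BIRC3 (0.119), ARHGAP25 (0.124) and CD2 (0.126). FAS (0.48) was closest to F2R (0.075), AARS1 (0.078) and E2F7 (0.082), and TNFRSF10B (0.34) to TSC1 (0.074), SLC25A36 (0.076) and POLH (0.084). FADD (0.32) was closest to SLC61A1 (0.113), RNF34 (0.121) and ERG28 (0.127), and CASP10 (0.54) to SIK2 (0.183), PREX1 (0.185) and AKIP1 (0.190). FASLG and CASP10 averaged under 10 CPM and so could not be found as neighbours themselves. The libraries are shared between all these patterns, and likeness here says nothing of common control.

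Around the 9 genes, the other death receptors and decoy receptors were mostly too low to test. Of 9 listed, EDA2R, TNFRSF11B, TNFRSF21, TNFRSF25 and TNFRSF6B were not tested. TNFRSF1A and NGFR were higher in the mean response and TNFRSF10D did not pass. TNFRSF10C passed the filter on low counts only through the SNT-8 icaritin libraries. No call of TNFRSF10C is therefore used, and no count is drawn from these 4. By edgeR, TNFRSF10C did not pass in SNK-10 (adjusted p = 0.122) or SNT-16 (adjusted p = 0.381). TNFRSF1A, the main receptor for TNF, was at 21.8 ± 0.234 FPKM with icaritin and 16.0 ± 0.543 FPKM with DMSO in SNT-8, 16.2 ± 0.397 and 12.3 ± 1.38 FPKM in SNK-10, and 19.4 ± 0.707 and 13.6 ± 1.31 FPKM in SNT-16 (mean log2 fold change 0.43, SE 0.0444, adjusted p = 3.96e-11). NGFR, a neurotrophin receptor with a death domain, was at 4.78 ± 1.29 CPM with icaritin and 1.72 ± 0.373 CPM with DMSO in SNT-8, 1.52 ± 0.123 and 0.07 ± 0.121 CPM in SNK-10, and 3.80 ± 0.385 and 1.30 ± 0.288 CPM in SNT-16. TNFRSF10C, a decoy receptor for TRAIL, was at 1.59 ± 0.539 CPM with icaritin and 0.37 ± 0.154 CPM with DMSO in SNT-8, and below 1.1 CPM in all libraries of the other lines. These levels are low, and the fold changes of NGFR and TNFRSF10C are given in the plot of named genes only as fitted.

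Of 20 genes of the TNF receptor complex and its ubiquitin editors, 6 were higher, 6 lower and 8 not called in the mean response (61.7% of all genes called, 31.7% higher and 30% lower), with a median of -0.02. The counts higher and lower were 5 and 6 in SNT-8 (24% and 25% of all genes), 7 and 4 in SNK-10 (24.4% and 24%), and 6 and 3 in SNT-16 (21.2% and 20.8%), and the share called in the mean response is near that of all genes. TNFAIP3, which encodes the ubiquitin editor A20 and restrains NF-kB, rose in each line (mean log2 fold change 0.88, SE 0.0368, adjusted p = 9.8e-19). LTA, the gene of lymphotoxin alpha, a ligand of the TNF receptors, fell by 1.40 in SNT-8, 0.42 in SNK-10 and 1.12 in SNT-16 on the log2 scale, and these falls differed (interaction, adjusted p = 5.02e-11). BIRC3, which encodes the ubiquitin ligase cIAP2, fell in SNT-8 (-0.68) and SNT-16 (-0.54) and did not pass in SNK-10 (-0.07, adjusted p = 0.197), with an interaction of adjusted p = 6.55e-09. BIRC3 did pass in SNK-10 without icaritin replicate 3 of that line (-0.12, adjusted p = 0.0225), with library size only (-0.11, adjusted p = 0.0219) and by limma on FPKM (-0.10, adjusted p = 0.0256 and 0.0264 with pseudocounts of 0.1 and 1). TNFRSF1B, the second TNF receptor, fell by 0.32, 0.52 and 0.32 in SNT-8, SNK-10 and SNT-16.

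Of 14 tested modulators of caspase-8 and necroptosis genes, 6 were higher, 5 lower and 3 not called in the mean response, against 31.7% and 30% of all genes, with a median of 0.02, and RIPK3 was not tested. By line, 3 were higher and 4 lower in SNT-8 (24% and 25% of all genes), 5 and 3 in SNK-10 (24.4% and 24%), and 3 and 5 in SNT-16 (21.2% and 20.8%). CUL3, part of the ubiquitin ligase that acts on caspase-8, fell by 0.71, 0.70 and 0.58 in SNT-8, SNK-10 and SNT-16. DAXX, a histone chaperone first found as a Fas-binding protein, fell by 0.86, 0.77 and 0.58 in the same order, and MLKL, the pore-forming effector of necroptosis, by 0.95, 0.65 and 0.74. CASP2, a caspase outside the receptor complex, rose in each line, by 0.34, 0.43 and 0.21. All of these values had an adjusted p of at most 0.000764.

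Of 15 executioner caspases and mitochondrial genes, 3 were higher, 5 lower and 7 not called in the mean response, against 31.7% and 30% of all genes, with a median of 0.03. By line, 2 were higher and 5 lower in SNT-8 (24% and 25% of all genes), 3 and 3 in SNK-10 (24.4% and 24%), and 2 and 2 in SNT-16 (21.2% and 20.8%). APAF1, the scaffold of the apoptosome, rose by 0.81, 0.99 and 0.92 in SNT-8, SNK-10 and SNT-16. CYCS, the gene of cytochrome c, fell by 0.60, 0.54 and 0.37. DIABLO, which encodes an antagonist of the IAP proteins, had 0.18, 0.22 and 0.15, of which the last did not pass (adjusted p = 0.0565). The call of DIABLO in SNT-8 was lost without DMSO replicate 1 or 3 or icaritin replicate 3 of SNT-8 (lowest value 0.12, adjusted p = 0.16), with no filter (adjusted p = 0.0626), by DESeq2 (adjusted p = 0.0644) and in the line alone (adjusted p = 0.0547). With single libraries left out, DIABLO in SNT-16 passed without SNT-8 icaritin replicate 2 or 3 or SNT-16 icaritin replicate 1 (adjusted p at least 0.0198), and it also passed with library size only (adjusted p = 0.0263) and in the line alone (adjusted p = 0.0332).

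Of 13 tested genes of transcription factors known to act on the 9 genes, 4 were higher, 8 lower and 1 not called in the mean response, against 31.7% and 30% of all genes, with a median of -0.11; EGR2, EGR3 and NFATC1 were not tested. Higher and lower counts were 4 and 7 in SNT-8 (24% and 25% of all genes), 8 and 2 in SNK-10 (24.4% and 24%), and 3 and 8 in SNT-16 (21.2% and 20.8%). DDIT3, the gene of CHOP, a stress factor known to raise TNFRSF10B, was at 106 ± 3.21 FPKM with icaritin and 23.1 ± 3.08 FPKM with DMSO in SNT-8, 54.3 ± 2.78 and 15.5 ± 0.773 FPKM in SNK-10, and 110.3 ± 5.29 and 26.4 ± 2.57 FPKM in SNT-16 (SD, n = 3 each). Its log2 fold changes were 2.08, 1.78 and 1.98, with no call for a difference between lines (interaction, adjusted p = 0.183). ATF4, the stress factor upstream of DDIT3, rose by 0.55, 1.03 and 0.71 in SNT-8, SNK-10 and SNT-16. These rises of ATF4 differed between lines (interaction, adjusted p = 1.64e-06). FOXO3, a forkhead factor held back by growth factor signalling, rose by 0.89, 1.16 and 0.80, and MYC, a growth factor-induced regulator, fell by 1.28, 1.23 and 1.24.

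**Figure D4:**
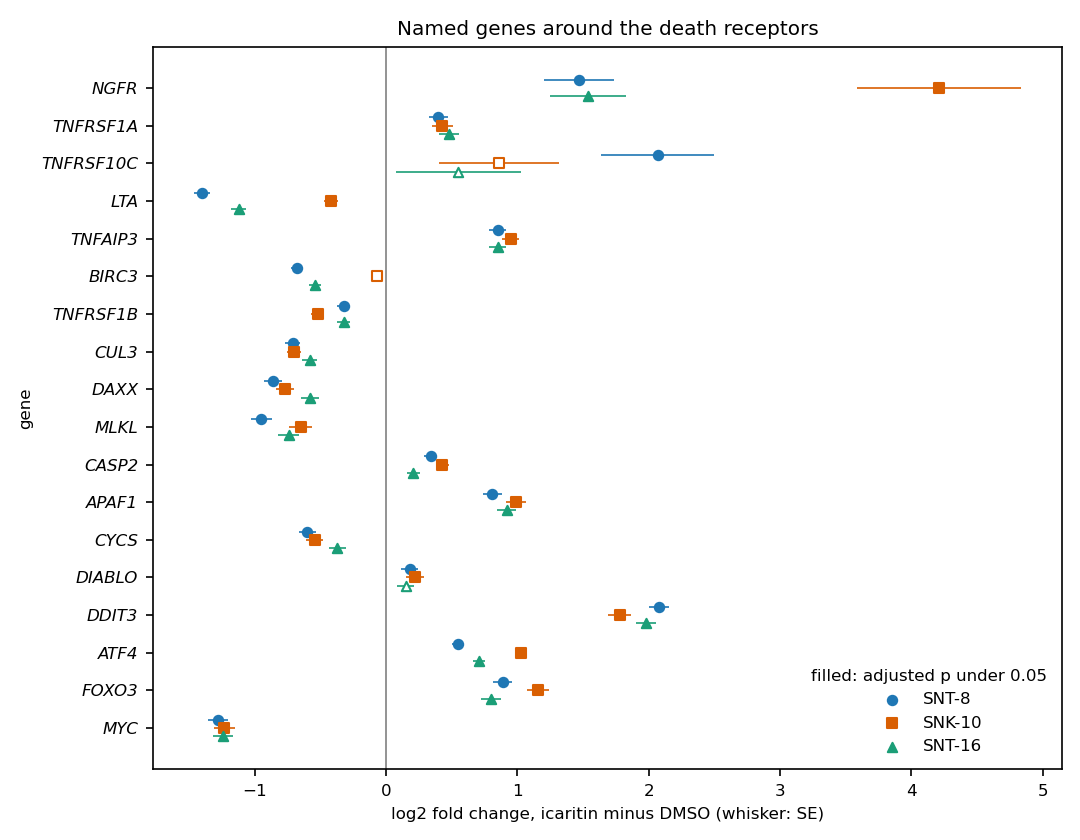
Log2 fold change of icaritin over DMSO (x axis) for the 18 named genes of the pathway lists (y axis) in SNT-8, SNK-10 and SNT-16; whiskers are the SE, and filled symbols have an adjusted p under 0.05 by edgeR. MYC and DAXX lie left of 0 and DDIT3 and APAF1 right of 0 in each line, while BIRC3 is open in SNK-10. NGFR and TNFRSF10C rest on few counts, and no call of TNFRSF10C is used.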

How the data were processed

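RNA of 18 libraries was measured by sequencing; per the labels' protocols, total RNA was taken with Trizol into an MGIEasy kit, and per the submitters' processing notes reads were handled with Bowtie2 and HISAT (versions unstated). Genome build and counting program were not given in the sources used here. The deposited expected counts are the authors' estimated fragments per gene, not scaled to depth. The deposited FPKM values are the authors' own. Counts over the deposited length of the gene in that library and the total came close to them, with a median ratio of 0.996. The exact length used as divisor was not given in the sources used here. Of 21662 gene IDs, 21559 were named through the NCBI Gene ID and 24 through a transcript.

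Expected counts were rounded and fitted with edgeR 4.0.16 in R 4.3.3 (TMM, filterByExpr with a minimum count of 10 and total of 15, robust quasi-likelihood, 1 mean per group, 12 residual degrees of freedom), which left 14396 genes. Tests were two-sided, with p-values adjusted by Benjamini and Hochberg over all of these genes and a threshold of 0.05. The biological coefficient of variation common to all genes was 4.43%. The SE is the absolute log2 fold change over the square root of F. Transcript length was tested by exact permutation within lines for genes with at least 10 counts in every library and a length that varied. Its p-values were adjusted over all these genes in place of the members, a choice made after the data were seen. Alternatives were RLE size factors, library size only, no filter, DESeq2 1.42.0, limma 3.58.1 on log2(FPKM + 0.1) or log2(FPKM + 1), a line alone, a fit that is not robust, a replicate block and each library left out. The procedure was tested on simulated data.

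The members and lists were chosen with earlier results of these data known. Named are all 9 members, up to 4 genes per list with the smallest p for the mean response, and the 3 closest patterns of each member called in at least 2 lines; a few genes of the lists are not reported here by name, and the counts of the lists include them. Fractional expected counts, which arise when fragments are shared between genes, occurred in all 18 libraries for TNFSF10, TNFRSF10A, TNFRSF10B, CASP8 and CASP10 and in 17 for CFLAR. They occurred in 0 libraries for FASLG, FADD and FAS, although FAS is listed with 11 transcripts. In the annotation TNFSF10 overlaps TBPL1P1 and TNFRSF10A overlaps RPL23AP55, which no library lists. CFLAR overlaps CFLAR-AS1, at 3.48 CPM against 405 CPM for CFLAR, and other genes that no library lists. No sign of pairing by replicate number was seen. The correlations of deviations lay between -0.058 and 0.055 for same-numbered libraries and between -0.062 and 0.075 for differently numbered ones. With 3 libraries per group, such values cannot show that same-numbered libraries were handled apart.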

Additional observations from a re-analysis of the deposited data

Results flagged for a closer look

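The icaritin response of 3 of the 9 genes differed between lines by the interaction test of edgeR, with adjusted p = 4.1e-07 for CASP8, 2.62e-05 for TNFSF10 and 0.00241 for TNFRSF10B. CASP8 had a log2 fold change of 0.52 in SNK-10, -0.10 in SNT-8 and -0.09 in SNT-16. TNFSF10 had -0.28 in SNK-10, -0.87 in SNT-8 and -0.48 in SNT-16. TNFRSF10B had 0.41 in SNK-10, 0.81 in SNT-8 and 0.67 in SNT-16. Without each library in turn, the adjusted p of the interaction lay between 4.69e-08 and 9.51e-06 for CASP8, between 3.13e-07 and 0.000219 for TNFSF10 and between 0.000189 and 0.0137 for TNFRSF10B.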

How the results depend on the processing

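Of 216 counts recomputed under settings other than leaving out a library, 210 stayed within 1.5 times. The other 6 concern SNT-8 minus SNT-16, where 63 genes differed in response: 279 with no filter, 115 by DESeq2, 8 by limma on log2(FPKM + 0.1) and 5 on log2(FPKM + 1), with 0 of the 9 genes in both limma fits against 1. Without each library in turn, that count lay between 17 (without SNT-16 icaritin replicate 2) and 178 (without SNT-8 icaritin replicate 2), with 0 to 1 of the 9 genes, and SNK-10 minus SNT-16 gave 1 to 3 of the 9 genes. The length ratio of CFLAR lay between -0.21 and -0.18. For the 9 genes, 757 of 788 values kept their side of the threshold, and any called direction, under other settings and 1752 of 1782 without single libraries, as did 798 of 813 and 1691 of 1710 values of the other named genes. Among those kept for the 9 genes, 38 values past the threshold in neither fit changed sign (25 of them without single libraries, none beyond 0.19 in size). The called values that turned round were those of CFLAR by limma on FPKM, 0.26 for the response in SNK-10 and -0.14 for SNK-10 minus SNT-8 in DMSO, with either pseudocount, where FPKM carries the length of the gene. CASP10 was also lost in SNK-10 by DESeq2 (adjusted p = 0.0562) and in SNT-8 and SNK-10 by limma (adjusted p = 0.116 to 0.318), as were FADD in SNT-16 by limma with 0.1 (adjusted p = 0.0526) and CASP8 in DMSO between SNK-10 and SNT-8 by limma (adjusted p = 0.142 and 0.145), and CFLAR in SNT-8 was called with library size only (0.11, adjusted p = 0.0187). A replicate block gave 6847, 6788 and 5819 genes called in SNT-8, SNK-10 and SNT-16 and changed no call of the 9 genes. Whether the replicate numbers pair the libraries is not known. Depth limits FASLG and CASP10 most.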

Other observations

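Among the transcription factor genes, IRF1, which is central to interferon responses and was singled out after its values were seen, went opposite ways between lines. On the log2 scale IRF1 changed with icaritin by 0.23 (SE 0.0532, adjusted p = 0.000416) in SNK-10, -0.32 (SE 0.0502, adjusted p = 1.11e-06) in SNT-8 and -0.23 (SE 0.0503, adjusted p = 0.000226) in SNT-16, and the interaction gave adjusted p = 9.83e-07.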
